A study of Mus musculus with 3 samples.

Results

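Pou5f1, which encodes Oct4, and 8 genes that regulate or mark the formative and primed epiblast were followed in mouse embryonic stem cells (mESCs) under inhibition of MEK. The members were Pou5f1, Sall4, Utf1, Foxd3, Zfp281, Otx2, Pou3f1, Fgf5 and Sall2, chosen by name, and their probes were found by matching the accession of each probe to these symbols. All 9 genes were on the array, with 11 of its 55681 probes that were not controls, and 27235 probes (48.9%) carried an accession of one of 20660 named genes. The 3 samples were RNA of J1 mESCs, a line from the inner cell mass of strain 129S4/SvJae, and came from separate experiments per the study's methods. The cells grew on gelatin without feeders, in knockout serum replacement medium that held 1000 U/mL of the cytokine LIF (leukemia inhibitory factor), and were treated with 1 µM PD0325901 (PD), an inhibitor of the kinase MEK, for 24 h. Each RNA was hybridised in 1 colour to its own array, so a difference between cultures and one between arrays cannot be told apart. All 3 samples thus shared LIF and PD and formed 1 group, so the values describe PD-treated cells and not an effect of PD. Cells without PD were not analysed here.

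Oct4 is the POU factor without which the pluripotent epiblast is not maintained, and it binds DNA together with Sox2. As cells leave the naive state, ERK signalling downstream of FGF favours a formative state, in which Otx2 redirects Oct4 to new enhancers and Pou3f1 and Fgf5 rise, before the primed state of the postimplantation epiblast. Inhibitors of MEK hold mESCs back from this transition. Sall4 is a zinc finger partner of Oct4 and Nanog, Utf1 is a chromatin protein of pluripotent cells, and Zfp281 and Foxd3 act in the transition itself.

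The upstream sequences of Pou5f1 and Fgf5 are shown, because Pou5f1 was the member that differed most between the arrays and Fgf5 the one with the dimmest signal. Both are from RefSeq (GRCm38.p6) and cover the 250 bases before the annotated start of the gene. Capitals mark the GC box, GGGCGG on either strand, which is bound by factors of the Sp family.

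Pou5f1, chr17:35505782-35506031, plus strand: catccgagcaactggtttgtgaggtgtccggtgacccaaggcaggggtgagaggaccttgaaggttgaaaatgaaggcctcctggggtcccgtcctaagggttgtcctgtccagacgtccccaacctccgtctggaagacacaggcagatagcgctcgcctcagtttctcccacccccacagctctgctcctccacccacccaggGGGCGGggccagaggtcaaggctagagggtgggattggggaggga

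Fgf5, chr5:98253934-98254183, plus strand: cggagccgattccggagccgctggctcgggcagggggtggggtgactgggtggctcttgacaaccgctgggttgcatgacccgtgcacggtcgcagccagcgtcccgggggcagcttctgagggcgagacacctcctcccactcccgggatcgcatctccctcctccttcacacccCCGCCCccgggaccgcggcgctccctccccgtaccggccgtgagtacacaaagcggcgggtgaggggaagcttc

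The GC box of Pou5f1 began 45 bases before the start, followed by a nuclear receptor half-site, AGGTCA, at 33 bases. The GC box of Fgf5 began 74 bases before the start, and an ETS core, CCGGAA read on the minus strand, lay 241 bases before it. ETS proteins include factors that ERK phosphorylates. Of all 32851 promoters of this length in the table, 32.7% held the GC box, 14.0% the half-site and 12.0% the ETS core on either strand. The table held 12 such promoters for 7 of the 9 genes. The GC box stood 4 times upstream of Zfp281 and 4 times upstream of Utf1, counting overlapping matches, and in none of the windows of Foxd3, Otx2 and Sall2. The octamer ATGCAAAT was in none of the 12 windows, against 1.60% of all promoters. These motifs do not overlap each other in the sequences shown. The content of G and C upstream of the first start was 62.0% for Pou5f1, 70.8% for Fgf5, 69.6% for Zfp281, 65.6% for Foxd3 and 61.6% for Utf1, against a median of 52.4% over all promoters. It was below that median for Otx2, at 42.0%, and for Sall2, at 28.0%. Other annotated starts differed, with 64.4% for Sall2, 45.6% for Pou5f1, and 49.2%, 48.4% and 53.6% for Otx2. The window of Pou5f1 at 45.6% held no GC box. A match describes the letters in the window and not a bound site.

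Between 63.1% and 65.2% of the probes were detected on each array. Array 2 had 187 spots that the software marked as non-uniform, against 25 and 8 on the others. Of its 48 blocks, 6 held at least 10 such spots. These are called marked blocks below.

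Every member was detected. All 11 probes were flagged well above background by the scanner software on each of the 3 arrays, so 9 of 9 genes were detected, whereas 72.8% of 20608 named genes with a usable spot on every array were. Levels below are log2 signals minus the 75th percentile of the array, which was at a signal of 551, 511 and 527 on replicates 1 to 3. A signal depends on the sequence of its probe as well as on the transcript, so an order of levels or signals between probes is not an order of transcript amounts. Summed signals below are not scaled for the brightness of the array, lean on the brightest genes of a list, and allow no comparison between lists. In RNA of a whole culture, fewer cells with a transcript and less transcript per cell cannot be told apart.

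Pou5f1 had signals of 11265, 16872 and 10239 on replicates 1, 2 and 3. Replicate 2 was thus high and the other two lay close together. The levels were 4.35, 5.04 and 4.28, with a mean of 4.56 ± 0.42 (SD, n = 3, as for all levels below). Replicate 2 exceeded the mean of the others by 0.73 log2 units, or 1.65-fold. The signal of replicate 2 was 1.5 times that of replicate 1 and 1.65 times that of replicate 3 before any scaling, and the error that the scanner software gave to the spot was 10% of the signal on each array. The SD of Pou5f1 was at percentile 98.0 among detected genes, and at percentile 99.2 in the brightest of 4 equal parts by level, where the median SD was 0.055.

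**Figure D1:**
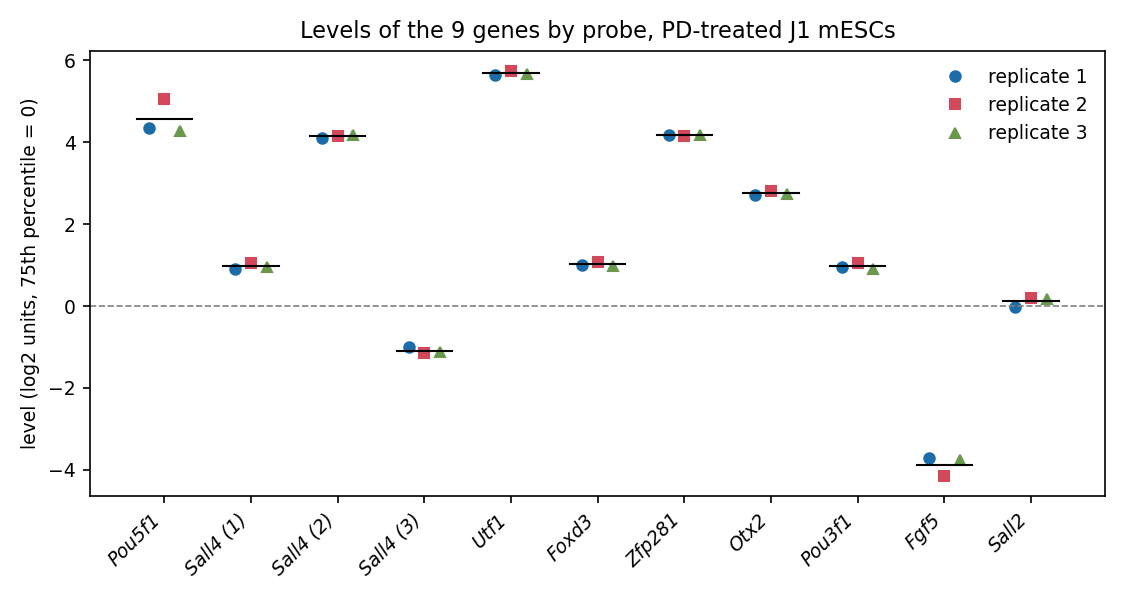
Level of each probe of the 9 genes (vertical axis, log2 units above the 75th percentile of the array, dashed line) on replicates 1 to 3 of PD-treated J1 mESCs; bars are means and the 3 probes of Sall4 are numbered. The 3 replicates nearly coincide for most probes, whereas replicate 2 of Pou5f1 lies at 5.04 against 4.35 and 4.28, and replicate 2 of Fgf5 lies below the others.

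The departure of Pou5f1 in replicate 2 was met again on a separate probe. Pou5f1-rs4, a transcribed pseudogene derived from Pou5f1 on another chromosome, is measured by 1 probe 169 rows and 100 columns away on the array. Its signals were 4103, 6393 and 3766, again highest in replicate 2. Its levels of 2.90, 3.64 and 2.84 (3.13 ± 0.45) put replicate 2 above the mean of the others by 0.78 log2 units. The difference between the levels of the Pou5f1 and Pou5f1-rs4 probes was 1.46, 1.40 and 1.44 on the 3 arrays. Its size has no meaning across probes, and its range over the arrays was 0.06 log2 units. Since the pseudogene resembles its parent, the probe may read transcripts of either locus, and which of them it read was not tested.

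Among 15005 other detected genes, the 5 whose 3 centred levels lay closest to those of Pou5f1 were Olfr94, Raly, Tatdn2, Pou5f1-rs4 and Kcnj4, with Euclidean distances from 0.022 to 0.042 log2 units. Pou5f1-rs4 was the fourth. With 3 arrays of 1 group this is a likeness of 3 numbers. The spot of Olfr94 lay in a marked block of array 2, and those of the other 4 genes and of Pou5f1 lay outside them.

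The spot of Pou5f1 carried no outlier flag on any array. Around it, the 55 detected probes within 5 rows and 5 columns had a median difference of replicate 2 from the others of 0.02 log2 units, and none of them departed by more than 0.53. The corresponding median around the Pou5f1-rs4 spot was 0.04 over 65 probes, of which the most deviant reached 1.38. Of 15006 detected genes, 210 (1.40%) had replicate 2 apart from the others by at least as much as Pou5f1 in either direction. Replicate 2 was the higher one in 96 of them (0.640%), and 46 of these 96 lay in the marked blocks, which held 12.1% of all detected genes.

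**Figure D2:**
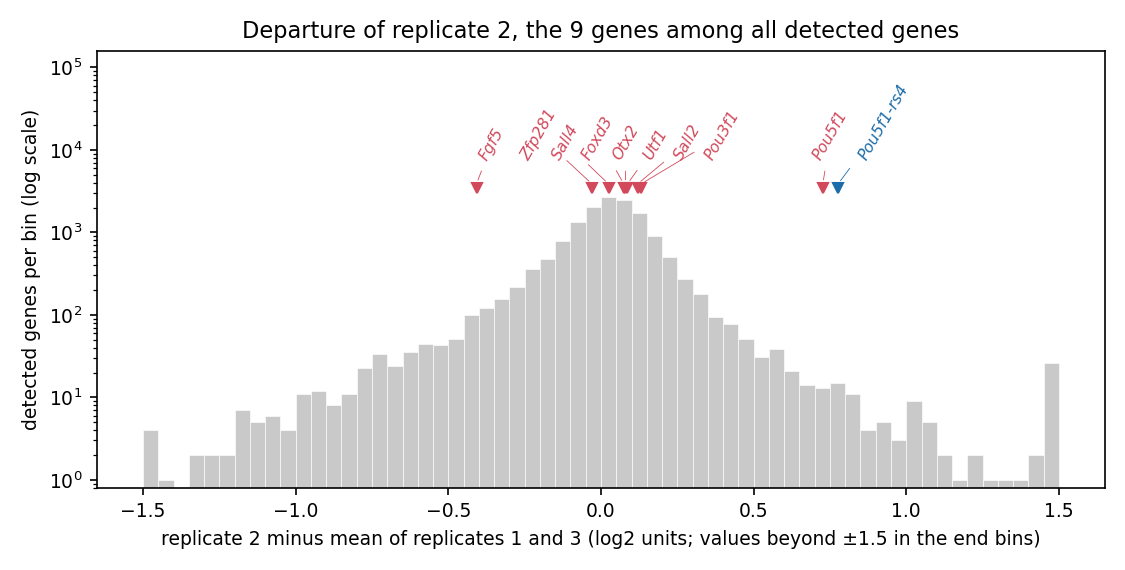
Level of replicate 2 minus the mean of replicates 1 and 3 (horizontal axis, log2 units) for all 15006 detected genes (grey bars, number of genes on a log axis), with the 9 genes (red) and Pou5f1-rs4 (blue) marked above. Pou5f1 at 0.73 and Pou5f1-rs4 at 0.78 lie to the right of nearly all genes, Fgf5 lies at -0.41, and the other 7 lie between -0.03 and 0.13.

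Sall4 and Utf1 differed little between the arrays. Sall4 was measured by 3 probes, all carrying the same RefSeq accession. The probe used for the gene had signals of 9486, 9163 and 9487 and a level of 4.15 ± 0.04, with no replicate standing clearly apart. The other two Sall4 probes had levels of 0.97 ± 0.08 and -1.09 ± 0.07, at mean signals of 1039 and 249. The 3 probes therefore disagreed on the level by more than 5 log2 units between the extremes, while each was steady over the arrays. Replicate 2 differed from the others by 0.02, 0.13 and -0.07 log2 units on them, without a common direction. Utf1 gave signals of 27293, 27322 and 26907 and a level of 5.68 ± 0.05. Its 3 signals thus lay within a narrow band.

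Sox2, the partner of Oct4 on DNA, departed in the opposite direction from Pou5f1, with signals of 6453, 4835 and 6827. Replicate 2 was the low one, by 0.38 log2 units below the mean of the others. Of 15006 detected genes, 121 had a difference between -0.40 and -0.35, the interval that held Sox2, and others departed further. The next lower interval, from -0.45 to -0.40, held 99 genes, and that from 0.35 to 0.40 held 93. These counts cover single intervals. They cannot be set beside the share given for Pou5f1, which takes in all genes at least as far apart. Sox2 was measured by 1 probe with 1 spot. Around that spot, 63 detected probes had a median difference of -0.07, and the most deviant departed by 2.64. Whether the departures of Sox2 and Pou5f1 are linked was not tested.

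Of the genes of the transition out of the naive state, Zfp281, a zinc finger factor required for it, was the steadiest member at this scaling. Its signals were 9898, 9046 and 9554 and its level 4.16 ± 0.02, an SD at percentile 5.06 among detected genes. That rank depended on the processing. With the median of each array, the SD was 0.063 for Zfp281 and 0.0096 for Foxd3. After normexp background correction, Sall4 had a lower SD than Zfp281, at 0.015 against 0.022. Foxd3, a forkhead factor of the epiblast and later of the neural crest, had signals of 1106, 1071 and 1038 and a level of 1.02 ± 0.05. The range over the 3 arrays was 0.04 log2 units for Zfp281 and 0.09 for Foxd3.

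Otx2, the homeodomain factor that drives formative enhancers and later patterns the forebrain, gave signals of 3585, 3574 and 3538. Its level was 2.75 ± 0.05. The spot was far brighter than the dimmest spots flagged well above background, so the transcript was measured clearly in cells under the inhibitor. Pou3f1, also called Oct6, a POU factor of the epiblast and of neural and glial cells, had signals of 1061, 1066 and 991 and a level of 0.97 ± 0.08. The 3 replicates of each gene lay within 0.15 log2 units.

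Fgf5, a secreted ligand and a common marker of the postimplantation epiblast, had the dimmest probe of the 9 genes. Its signals were 42.2, 28.9 and 38.8, against lowest signals flagged well above background of 10.1, 11.4 and 10.3 on these arrays. The level was -3.87 ± 0.24, and replicate 2 was 0.41 log2 units below the mean of the others. The software error was 11.2%, 13.0% and 11.5% of the signal. The SD of Fgf5 was at percentile 77.5 in the dimmest of the 4 parts of genes by level, where the median SD was 0.14. After normexp background correction with its offset, the level of Fgf5 was -2.55 and its SD 0.05, so the size of this departure depended on the background correction, with replicate 2 still the lower one. Without replicate 2 the SD was 0.04.

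Sall2, a zinc finger factor of neural and other tissues and a paralogue of Sall4, was the only member with replicate 1 as the odd one by more than 0.1 log2 units. Its signals were 539, 584 and 594 and its levels -0.03, 0.19 and 0.17 (0.11 ± 0.12). Its spot and that of the Sall4 probe used here lay in marked blocks of array 2, although replicate 2 was not the farthest replicate in either gene.

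Across the members, the median SD was 0.055 log2 units, against 0.074 over all detected genes, and it was 0.053 without Pou5f1. The order of these medians rested on single arrays. Without replicate 3 it turned, at 0.077 for the members and 0.065 for all detected genes, whereas without replicate 2 the medians were 0.032 and 0.050. Brightness mattered too, as the median SD was 0.14, 0.076, 0.060 and 0.055 in the 4 parts of genes from dimmest to brightest. Within these parts, the SD was at percentile 8.72 for Zfp281, 25.6 for Sall4, 34.3 for Foxd3, 41.6 for Otx2 and 49.1 for Utf1. Pou3f1 was at 66.7, Fgf5 at 77.5, Sall2 at 78.4 and Pou5f1 at 99.2. Beside genes of like level, the members thus lay on both sides of the middle. With the marked blocks and thus Sall4 and Sall2 left out, the median over the other 7 members was again 0.055 and that of all detected genes 0.071. In none of the 9 did the levels span over 1 log2 unit, as they did in 0.986% of detected genes. Over all 15006 detected genes, the replicate farthest from the median was replicate 1 in 4205, replicate 2 in 6427 and replicate 3 in 4374. Replicate 2 was farthest from the median in 7 of the 9 genes, compared with 42.8% of detected genes, and was above the mean of the others in 7, all but Zfp281 and Fgf5. These small directions depended on the scaling. With the median of each array in place of the 75th percentile, replicate 2 was farthest in 4 genes and above the others in 6, since Sall4 then lay below, and 36.9% of all detected genes lay above instead of 60.7%. The median difference over all genes moved from 0.03 to -0.04 log2 units between these scalings.

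The genes around these regulators gave the wider picture. All 12 further formative genes on the list were detected. They included the de novo DNA methyltransferases Dnmt3a (0.45 ± 0.01) and Dnmt3b (5.91 ± 0.12), their cofactor Dnmt3l (6.09 ± 0.11), and the ETS factors Etv4 (3.49 ± 0.17) and Etv5 (6.36 ± 0.05). The widest range in the list was that of Etv4 with 0.34 log2 units, and the narrowest that of Dnmt3a with 0.02.

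Of 14 primed epiblast genes, 11 were detected (78.6%), a share near the 72.8% of all named genes. The TGF-beta ligands Nodal (4.08 ± 0.045), Lefty1 (4.52 ± 0.04) and Lefty2 (3.35 ± 0.05) were steady, and the zinc finger factor Zic2 had the widest range of the detected ones at 0.44, with replicate 2 high. Eomes, a T-box factor of the primitive streak, was among the detected ones with signals of 549, 597 and 484. So was Foxa2, a forkhead factor of the endoderm, with 49.7, 38.6 and 49.3. Of the 2 probes of Foxa2, 1 was detected on all arrays, and of the 3 probes of Fgf8, 2 were. Cer1, Wnt3 and Tbxt were not detected on all arrays. Cer1, an antagonist of Nodal and Wnt, had signals of 35.2, 3.05 and 2.73 and passed the flag on 1 array, replicate 1. Wnt3 had signals of 10.1, 10.4 and 11.8 and passed on 1 array as well, and Tbxt, which encodes Brachyury, passed on 2 with signals of 12.8, 12.2 and 14.0. Apart from that of Cer1 in replicate 1, these signals were close to or below the lowest ones that passed the flag on any probe.

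The naive list was complete as well, with 14 of 14 genes detected and a median SD of 0.055 log2 units, close to that of the members. The median SD was 0.12 for the formative and 0.13 for the primed genes, with no account taken of their brightness.

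Not all relatives of the members were detected. Among the other POU genes, 11 were on the array and Pou6f1 was not. Of the 11, 54.5% were detected, against 72.8% of all named genes. The 6 genes Pou2f1, Pou2f2, Pou2f3, Pou4f1, Pou4f2 and Pou5f2 were detected. The class 3 relatives of Pou3f1, namely Pou3f2, Pou3f3 and Pou3f4, were not, nor were Pou1f1 and Pou4f3. Pou3f3 passed the flag on 1 array, with levels of -6.36, -3.08 and -7.19, and its spot lay in a marked block of array 2, where it was high. Pou5f2, the other class 5 POU gene, had levels of -2.39, -3.44 and -2.80, so that replicate 2 was low where that of Pou5f1 was high. Its signals were dim, at 105, 47.2 and 75.7, its SD was 0.53, and replicates 1 and 3 differed too.

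Among paralogues of the other members, Sall1 (1.91 ± 0.06), Sall3 (-1.92 ± 0.14), Foxd1, Foxd2, Foxd4 and Zfp148 (1.81 ± 0.09) were detected, whereas the Otx2 relatives Otx1 and Crx passed the flag on no array. This was 6 of 8 genes, again near the share over all named genes. The 4 FGF receptors, through which FGF ligands signal, were all detected, Fgfr1 at a level of 4.03 ± 0.06 and Fgfr2 at -2.01 ± 0.10. All 12 subunits of NuRD, a deacetylase complex that Sall4 and Zfp281 recruit, were detected too, and the highest range among them was 0.25 log2 units, in Hdac2.

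**Figure D3:**
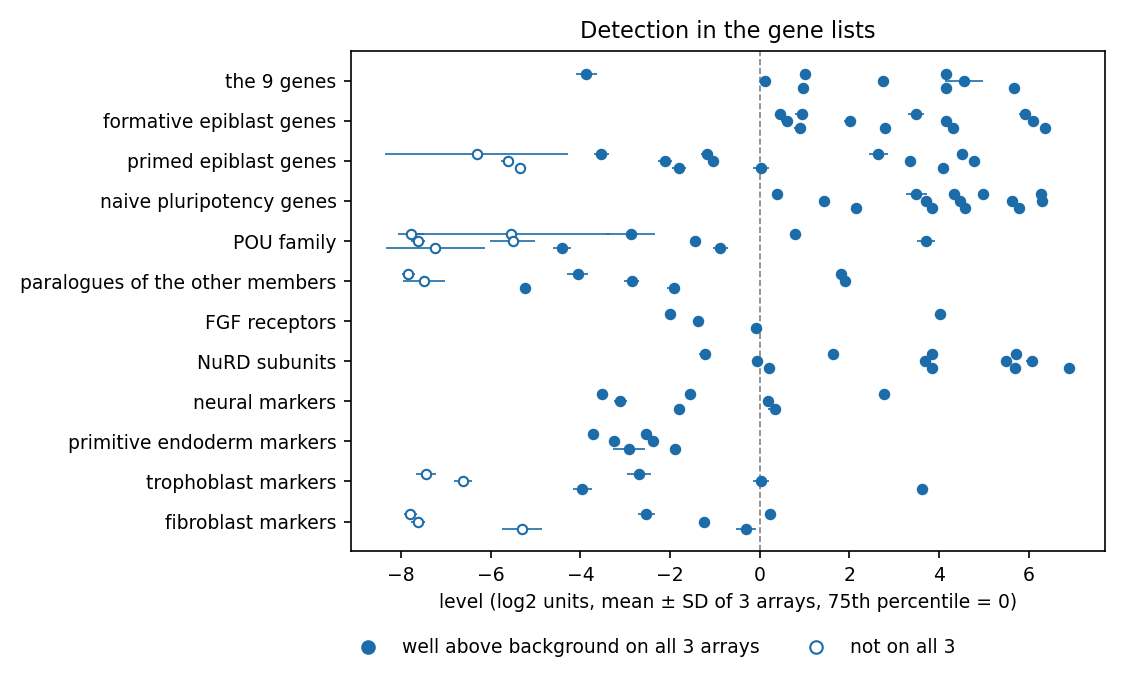
Level (horizontal axis, log2 units, mean with SD bars over 3 arrays, dashed line at the 75th percentile) of the 9 genes and of each gene list; filled circles were well above background on all 3 arrays and open circles were not. All members, formative and naive genes are filled, and open circles stand among the primed, POU, paralogue, trophoblast and fibroblast genes.

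The labelled cell type was checked with markers. Since 72.8% of all named genes were detected, the counts of detected markers alone say little about which cell types were present. All 7 markers of embryonic stem cells were detected, with a summed signal between 316037 and 342357 over the arrays. Since Otx2, Pou3f1 and Sall2 are also expressed in neural cells, neural markers were examined beside them, and 7 of 7 were detected with a summed signal from 5207 to 5404. Most of that sum came from Tubb3, with signals of 3573, 3535 and 3677. Sox1 had a level of 0.18 ± 0.05, Pax6 of -1.79 ± 0.05 and Olig2 of -1.56 ± 0.07. Of the 2 probes of Pax6, 1 was detected on all arrays. The part of such cells in the levels of Otx2, Pou3f1 and Sall2 was not tested. The 6 primitive endoderm markers, also detected, summed to between 491 and 511. Replicate 2 was above the others in 3 of these 6 and below in 3, with a median difference of 0.04 log2 units and values from -0.18 in Gata6 to 0.61 in Dab2. Trophoblast markers were detected in 4 of 6 cases, with Cdx2 and Elf5 on no array, and fibroblast markers in 4 of 7, with Postn and Lum on none and Col3a1 on 1. The summed signal of the trophoblast list was between 6811 and 7411 and that of the fibroblast list between 1326 and 1430. Both unscaled sums were lowest in replicate 2, whose array also had the lowest 75th percentile, at 511 against 551 and 527. Most of the trophoblast sum came from Tfap2c, with signals of 6678, 6114 and 6789. Among the detected trophoblast markers, replicate 2 differed from the others by -0.47 in Gata3 to 0.28 in Eomes. Among the detected fibroblast markers it differed by -0.39 in Col1a2, whose spot lay in a marked block of array 2, to 0.23 in Pdgfrb. Whether any of these cells moved with Pou5f1 in replicate 2 was not tested.

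The departure of Pou5f1 was next followed through the processing. Replicate 2 was above the mean of the others by 0.66 to 0.73 log2 units under the scalings, background corrections and spot rules tried, and by 0.73 in the table of values that the authors deposited. The lowest value came from scaling to the median of each array. For Pou5f1-rs4 the difference was between 0.68 and 0.78, the lowest after normexp background correction. The share of detected genes that departed at least as much as Pou5f1 was between 0.586% and 1.97%.

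**Figure D4:**
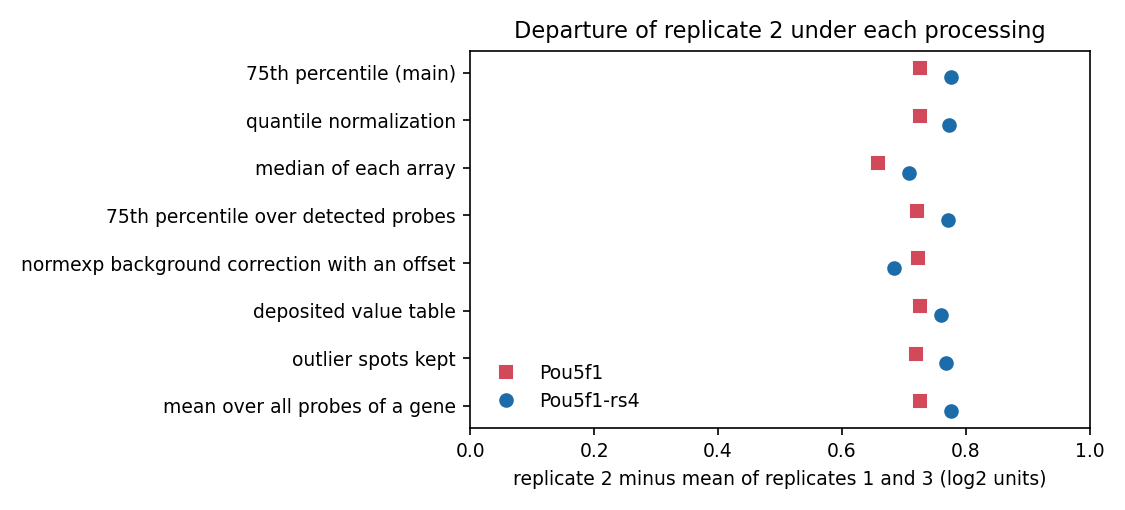
Level of replicate 2 minus the mean of replicates 1 and 3 (horizontal axis, log2 units) of Pou5f1 (squares) and Pou5f1-rs4 (circles) under each way of processing (vertical axis). All values lie between 0.66 and 0.78, so the departure was of like size throughout.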

How the data were processed

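The authors deposited the intensity of every spot as Agilent's Feature Extraction software (10.7.3.1 per the file headers) gave it, all from 1 slide and 1 scan. The software subtracted the background and removed spatial trends within each array, and nothing was normalized between arrays. The authors also deposited a table of log2 values with no stated normalization, used as an alternative. The array grid refers to mm9. Probes were named through the RefSeq gene table of GRCm38.p6 by accession without version.

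Log2 processed signals were averaged over spots without outlier flags, and the 75th percentile of each array over probes that were not controls was subtracted. A gene was represented by its probe of highest mean level and taken as detected where the software's flag for signal well above background was set in at least 50% of the spots of a probe on each array. Bright and dim probes differ in precision, and 3 arrays limit every SD. With 1 group no test was possible and no p-value was computed.

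Alternatives were quantile normalization, the median, the percentile over detected probes, normexp (offset 50, limma 3.58.1, R 4.3.3) on the spot medians, the deposited table, outlier spots kept, other probe and detection rules, and leaving out each replicate. The members and gene lists were chosen with earlier results of these data known. Named are all members, list genes, the 5 genes nearest to Pou5f1, and neighbouring or derived loci. One listed gene is not reported here and was left out of the counts.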

Additional observations from a re-analysis of the deposited data

How the results depend on the processing

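No paired analysis was possible because PD-treated cells were the single group. The number of detected members was 9 under every rule for probes and flags tried and without each replicate, and the number with a range above 1 log2 unit was 0 throughout. The median SD of the members was between 0.032 and 0.077 log2 units when 1 replicate was left out. The lowest value was without replicate 2, where the median over all detected genes was 0.050. The highest was without replicate 3, where that of all detected genes was 0.065 and so lay below that of the members. Under the other alternatives it was between 0.050 and 0.060. Leaving out the marked blocks, leaving out Pou5f1 and following Pou5f1-rs4 were added after seeing the data. Of 90 levels of members under alternatives, 81 moved by less than the SD over the arrays. Of the 9 others, 7 were after normexp, which raised Fgf5 from -3.87 to -2.55. The level of Sall4 was 1.34 with its 3 probes averaged, against 4.15 for the probe used, and Zfp281 was at 4.13 in the deposited table. Each probe of the members had 1 spot per array, so no error between spots was available, and precision was lowest for Fgf5, whose signal was at least 1.70 times the local background.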

Other observations

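The loci next to the members were looked up in the RefSeq gene table. Of 18 protein-coding neighbours 17 were on the array and 15 were detected on all 3 arrays. The neighbours of Pou5f1, H2-Q10 (-1.43 ± 0.09) and Tcf19 (0.49 ± 0.04), had replicate 2 within 0.11 log2 units of the others. Next to Fgf5, Prdm8 passed the flag on no array, and next to Sall2 the olfactory receptor gene Olfr1513 passed on none.

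Both neighbours of Foxd3 were low in replicate 2, Alg6 by 0.64 log2 units (-0.64) and Atg4c by 0.59 (-0.59), whereas Foxd3 itself was at 0.07. Both spots lay in marked blocks of array 2. Each gene has another probe outside those blocks, and on these the difference was 0.14 for Alg6 and 0.08 for Atg4c.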
